A study of Mus musculus with 12 samples.

Results

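In inguinal white adipose tissue (iWAT), the fat pad in which beige adipocytes form, the glucocorticoid axis was followed through 9 genes. They were the glucocorticoid receptor gene Nr3c1, the mineralocorticoid receptor gene Nr3c2, the activating enzyme Hsd11b1 and the target genes Tsc22d3, Fkbp5, Sgk1, Zbtb16, Klf9 and Errfi1. All 9 were matched by symbol among the 23420 genes of the count table, and all 9 were among the 15306 genes that passed the filter on low counts. The set was chosen partly by a measured value, the higher level of Tsc22d3 in TN HIF2α AKO than in TN WT, so the genotype difference at TN is described for these genes without a test. RNA came from male C57BL/6 mice at 10 weeks of age in 4 groups of 3 libraries. WT mice were HIF2a loxP/loxP without Cre, and HIF2α AKO mice were HIF2a loxP/loxP with Adipoq-Cre, so the floxed allele was common to all groups and Cre was always present together with the deletion. Adipoq-Cre acts in adipocytes, and the other cells of the pad keep both alleles. Thermoneutral (TN) mice were kept at 30 °C for 1 week and cold mice at 4 to 6 °C for 3 days, so temperature and length of stay cannot be told apart. The labels number the libraries within a group without saying that each came from a separate mouse, and p-values measure the spread between these libraries.

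Glucocorticoids such as corticosterone enter cells and bind a receptor held in the cytoplasm by heat shock proteins, after which the receptor moves to the nucleus and binds DNA at palindromic response elements. In fat, the enzyme encoded by Hsd11b1 regenerates active corticosterone from its inert 11-keto form within the cell. In adipocytes and their precursors, the hormone favours differentiation and lipid storage and dampens inflammatory genes. Plasma corticosterone follows the time of day and rises with stress, so the RNA of its fast target genes varies with the hour and the handling of an animal. The time of day at collection is not given in the sources used here, and corticosterone was not among the measurements analysed.

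The 12 libraries held from 22368316 to 35204631 gene counts, and the values below are CPM, a gene's counts relative to its library's total after edgeR's TMM scaling, which allows for differences in RNA composition. Epas1, which encodes HIF2α, did not have lower counts under the label HIF2α AKO. It stood at 743 to 986 CPM in cold HIF2α AKO against 562 to 743 CPM in cold WT. At TN it was 289 to 394 CPM in HIF2α AKO against 278 to 430 CPM in WT. These counts cover the whole gene and were not split by exon, and cells other than adipocytes keep both alleles. The study reports lower Hif2a mRNA in adipose tissue of its knockout mice by RT-qPCR. The summed CPM of 12 skeletal muscle markers reached 1596 in TN HIF2α AKO replicate 2 and 1315 in cold HIF2α AKO replicate 1, and was at most 95.5 elsewhere. The sum of 6 epithelial markers was 178 in TN WT replicate 3 and at most 6.55 elsewhere.

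Markers of the cell types of the pad moved with temperature, in a contrast in which 48.8% of all tested genes were called. The summed CPM of 7 white adipocyte markers lay between 4367 and 11712 at TN and between 14372 and 27796 in cold, and 5 of the 7 rose. Adipoq, at 0.21 ± 0.24 on the log2 scale (edgeR adjusted p = 0.478), and Lep (edgeR adjusted p = 0.182) passed no test. Fabp4 had the largest values of the 7, at 1960 to 5580 CPM at TN and 8930 to 16700 CPM in cold. All 6 thermogenic markers rose, with sums of 12.1 to 60.8 CPM at TN and 3274 to 8459 CPM in cold. The 10 lymphocyte markers summed to between 1658 and 2685 CPM at TN and between 939 and 1675 CPM in cold, and 8 of them fell. Of the 6 fibroblast and progenitor markers 4 fell, with sums of 2429 to 3192 CPM at TN and 1554 to 2106 CPM in cold. The 6 macrophage markers tested ranged from 1247 to 2278 CPM at TN and from 988 to 1975 CPM in cold, where 2 fell. Sums of the 5 endothelial markers went from 722 to 906 CPM at TN and from 893 to 1014 CPM in cold, where 2 rose. No marker in these lists was at 0 in every library. Their part in the results on cold below was not tested, and in bulk tissue fewer cells of a type and less RNA per cell cannot be told apart.

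Per length of transcript, the 9 genes covered a wide range of levels. In TN WT, Hsd11b1 stood first at 29.2 ± 13.1 CPM per kb of exon (SD, n = 3), followed by Nr3c1 at 22.3 ± 1.54, and their libraries overlapped. Tsc22d3 came next at 14.5 ± 1.1 CPM per kb, apart from both neighbours. Sgk1, Errfi1, Zbtb16 and Klf9 followed between 11.6 and 9.77 CPM per kb, and each overlapped the next in the order. Fkbp5 at 6.76 ± 0.0813 CPM per kb was apart from Klf9 above it and from Nr3c2 below it, at 1.09 ± 0.105. In cold the order changed at the top, where Klf9 was first at 25.6 ± 5.27 CPM per kb in WT and 26.0 ± 4.11 in HIF2α AKO. There the libraries of Klf9 overlapped those of Tsc22d3, second in both genotypes, and Nr3c2 was last in every group.

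**Figure D1:**
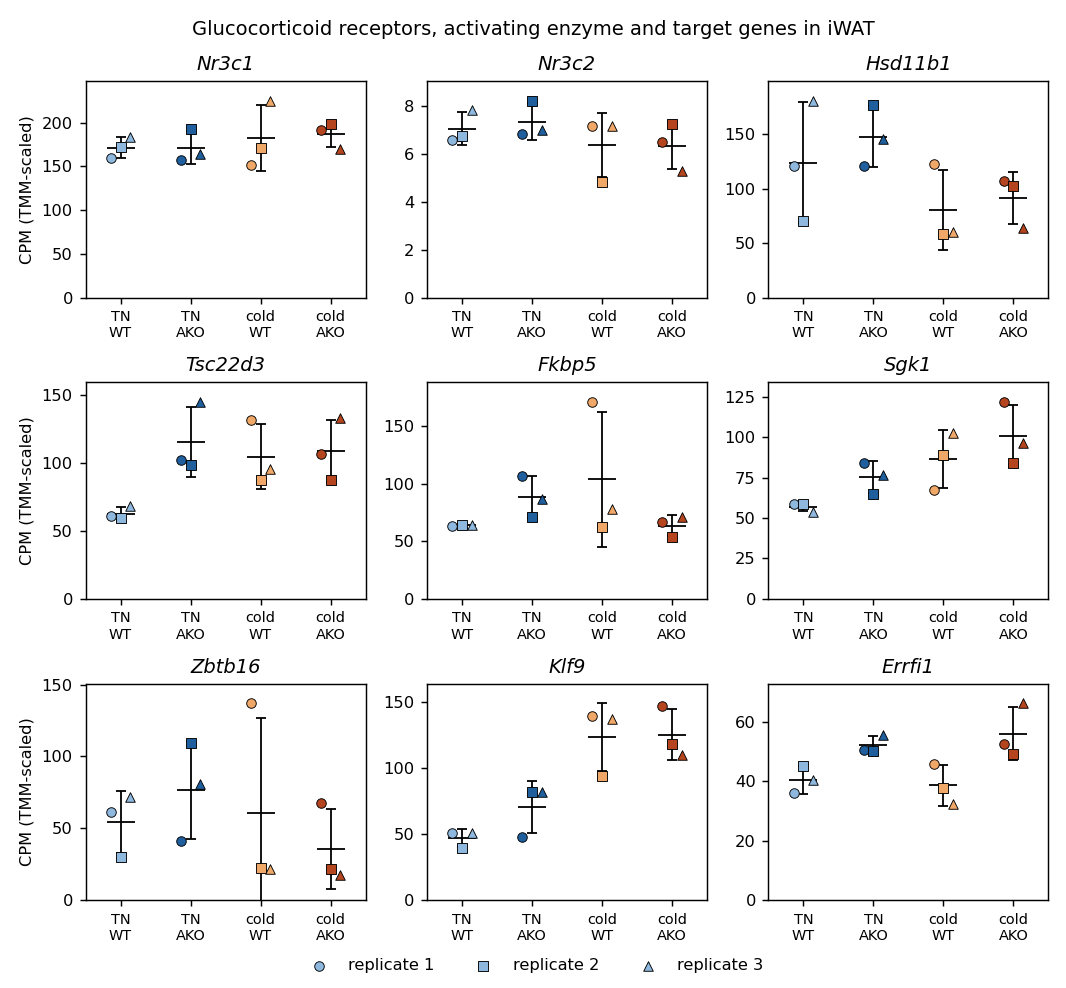
CPM of the 9 genes in the 12 libraries (vertical axes, each from 0), by group (horizontal axes); symbols mark replicate numbers, the short bar is the mean and the whiskers are 1 SD (n = 3). Klf9 was higher in all 6 cold libraries than in all 6 TN libraries, Tsc22d3 was lower in TN WT (59.3 to 68.3 CPM) than in every other group, and Fkbp5 (171 CPM) and Zbtb16 (137 CPM) stood out in cold WT replicate 1.

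To see how the receptors themselves behaved, their levels were examined first. Nr3c1 (chr18:39410545-39519421 in GRCm38, minus strand) was measured at 159, 172 and 183 CPM in TN WT and at 157, 193 and 164 CPM in TN HIF2α AKO. In cold it stood at 152, 171 and 225 CPM in WT and at 192, 198 and 170 CPM in HIF2α AKO. All groups overlapped. The fitted difference between cold and TN over both genotypes was 0.11 ± 0.10 on the log2 scale (SE), with a 95% interval from -0.10 to 0.31 and an edgeR adjusted p of 0.409. Nr3c2, the receptor that aldosterone and glucocorticoids share, was measured at 6.60, 6.75 and 7.85 CPM in TN WT and at 6.82, 8.23 and 7.0 CPM in TN HIF2α AKO. It stood at 7.16, 4.83 and 7.16 CPM in cold WT and at 6.49, 7.24 and 5.29 CPM in cold HIF2α AKO, again with every group overlapping. Its log2 difference was -0.18 ± 0.13, with a 95% interval from -0.44 to 0.08 (edgeR adjusted p = 0.268). Nr3c2 (chr8:76899442-77245012, plus strand) shares 247 exon bases with Gm10649 on the opposite strand, and the strand setting of the authors' counting is not given in the sources used here. Reads of that stretch cannot be assigned to either gene with certainty.

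Hsd11b1, which sets the intracellular supply of active hormone, varied between libraries of a group more than the receptors did, with a highest library 2.58 times the lowest in TN WT against at most 1.48 times for either receptor in any group. The gene lies at chr1:193221634-193264075 on the minus strand and overlaps Lamb3 on the opposite strand without sharing exon bases. It was measured at 121, 70.2 and 181 CPM in TN WT and at 121, 177 and 146 CPM in TN HIF2α AKO. In cold it stood at 123, 58.1 and 60.3 CPM in WT and at 107, 103 and 64.3 CPM in HIF2α AKO. The TN and cold libraries overlapped in WT and did not overlap in HIF2α AKO. Over both genotypes the log2 difference of cold against TN was -0.66 ± 0.26, which missed the threshold (edgeR adjusted p = 0.0558). That call turned with the setting, since Hsd11b1 fell by 0.65 with an adjusted p of 0.0280 in DESeq2, by 0.81 with an edgeR adjusted p of 0.0214 without TN WT replicate 2, and by 0.88 with an edgeR adjusted p of 0.0148 without cold WT replicate 1. Enzymes beside it in steroid handling were a separate list of 7 genes, of which 6 were tested, 2 rose in cold and none fell, a smaller share than the 48.8% of all tested genes called in this contrast. Por, the reductase that feeds electrons to microsomal P450 enzymes, rose by 0.85 ± 0.16 (edgeR adjusted p = 0.00164). H6pd, which supplies the NADPH that the Hsd11b1 product consumes, rose by 0.47 ± 0.13 (edgeR adjusted p = 0.0111). The efflux pump gene Abcb1b had a log2 difference of -0.24 ± 0.11 (edgeR adjusted p = 0.105).

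Among the 6 target genes, Klf9 and Sgk1 rose in cold. These were the only 2 of the 9 genes called over both genotypes by edgeR's quasi-likelihood test, both in the higher direction, where 48.8% of all tested genes were called, 24.8% higher and 24% lower. The share of the 9 genes that was called lay under that background. Their median log2 difference was 0.11, against -0.05 over all 15306 tested genes. Klf9 alone, 1 of the 9, showed no overlap between the 6 cold and the 6 TN libraries, where 24.6% of all genes did.

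Klf9, a Krüppel-like transcription factor induced by glucocorticoids and by the clock (chr19:23141226-23168134, plus strand), was measured at 50.9, 39.4 and 50.8 CPM in TN WT and at 48.0, 81.5 and 81.9 CPM in TN HIF2α AKO. It stood at 139, 94.0 and 137 CPM in cold WT and at 147, 118 and 110 CPM in cold HIF2α AKO. The lowest cold library was above the highest TN library. Klf9 rose 2.16-fold over both genotypes, by 1.11 ± 0.16 on the log2 scale (edgeR adjusted p = 0.000370). Within WT it rose by 1.39 ± 0.23 (edgeR adjusted p = 0.00252), and within HIF2α AKO by 0.83 ± 0.22 (edgeR adjusted p = 0.0214). In HIF2α AKO the adjusted p exceeded 0.05 when replicate 1 of either group, or the libraries with raised muscle and epithelial markers, were left out, at log2 differences of 0.61, 0.69 and 0.81. Whether the rise differed between genotypes was not tested, because that difference contains the TN contrast used in choosing the genes.

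Sgk1, a kinase that acts on ion channels and FOXO factors downstream of both steroid receptors (chr10:21882184-21999903, plus strand), was measured at 58.5, 58.8 and 53.9 CPM in TN WT and at 84.3, 64.7 and 76.8 CPM in TN HIF2α AKO. In cold it stood at 67.5, 89.3 and 103 CPM in WT and at 122, 84.3 and 96.7 CPM in HIF2α AKO. Cold and TN did not overlap within WT, and within HIF2α AKO the nearest libraries of both were at 84.3 CPM. Sgk1 rose 1.43-fold over both genotypes, by 0.51 ± 0.12 on the log2 scale (edgeR adjusted p = 0.00606), and this call held in every alternative run. Within WT it rose by 0.60 ± 0.17 (edgeR adjusted p = 0.0302), a call that was lost when TN WT replicate 1, 2 or 3 or cold WT replicate 2 or 3 was left out, with differences from 0.46 to 0.62. Within HIF2α AKO the difference was 0.42 ± 0.17 (edgeR adjusted p = 0.0824). Of the 8 genes without Tsc22d3, 2 were called in WT against a background of 21.3%, and 1 in HIF2α AKO against 27%. Groups without overlap were seen for 2 of the 8 in WT, where 42% of all genes showed none, and for 4 of the 8 in HIF2α AKO, where 50.5% did.

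The other targets passed no test in cold over both genotypes, a contrast that averages WT and HIF2α AKO and so does not hold the genotype difference at TN. Tsc22d3 encodes GILZ, a leucine zipper protein that carries much of the anti-inflammatory action of the hormone (chrX:140539528-140600659, minus strand), and its log2 difference was 0.33 ± 0.14 (edgeR adjusted p = 0.0744). Tsc22d3 passed the threshold without cold HIF2α AKO replicate 2, with a rise of 0.40 (edgeR adjusted p = 0.0457). It was also called without TN HIF2α AKO replicate 3, at a difference of 0.43. The TN groups were then unequal, so the contrast no longer kept out the genotype difference at TN. That call is not read as a result. Fkbp5, a co-chaperone that lowers the receptor's affinity for its hormone in a negative feedback (chr17:28399094-28517527, minus strand), had a difference of 0.11 ± 0.22 (edgeR adjusted p = 0.680), which turned to -0.17 without cold WT replicate 1. Errfi1, an inhibitor of the EGF receptor (chr4:150853919-150868892, plus strand), had a difference of 0.02 ± 0.10 with a 95% interval from -0.18 to 0.22 (edgeR adjusted p = 0.892). Zbtb16, the zinc finger factor PLZF (chr9:48654297-48836222, minus strand), had a difference of -0.48 ± 0.52 (edgeR adjusted p = 0.460), which moved to a fall of 1.21 when cold WT replicate 1 was left out (edgeR adjusted p = 0.0355).

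**Figure D2:**
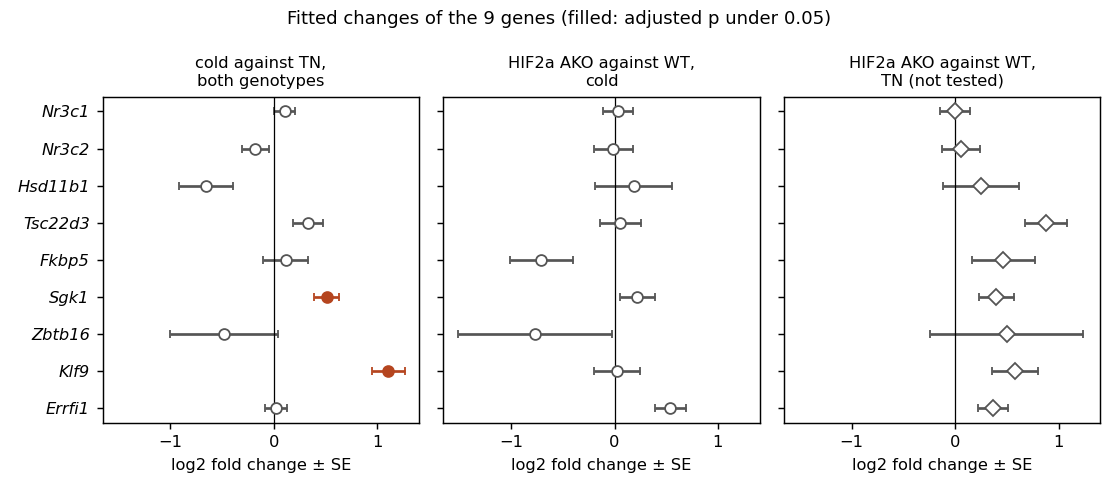
Log2 fold changes fitted by edgeR (horizontal axes, whiskers 1 SE) for the 9 genes (rows) in cold against TN over both genotypes, in HIF2α AKO against WT in cold, and in HIF2α AKO against WT at TN, which is a description without a test. Filled points, Klf9 at 1.11 and Sgk1 at 0.51 in the left panel, passed an adjusted p of 0.05.

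The 250 bases before annotated starts of some of these targets are shown because the receptor's response element is read from the sequence itself. The windows came from RefSeq on GRCm38.p6, where 15 windows of 7 of the 9 genes were used, and only windows outside exons are printed. No window of Nr3c1 or Zbtb16 was used. For Sgk1 the window chr10:21993640-21993889 (plus strand) is given, for Klf9 chr19:23140976-23141225 (plus strand), for Fkbp5 chr17:28486150-28486399 (minus strand) and for Tsc22d3 chrX:140548572-140548821 (minus strand). The windows of Sgk1, Fkbp5 and Tsc22d3 lie inside the span of a longer transcript of the same gene, and that of Klf9 lies upstream of the gene. Capitals mark a full palindrome of the response element or the letters ACGTG, searched on both strands.
Sgk1: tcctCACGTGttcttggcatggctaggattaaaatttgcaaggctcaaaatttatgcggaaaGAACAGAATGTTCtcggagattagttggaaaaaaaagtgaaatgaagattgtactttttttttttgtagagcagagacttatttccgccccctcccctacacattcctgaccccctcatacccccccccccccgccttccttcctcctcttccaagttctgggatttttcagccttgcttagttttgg
Klf9: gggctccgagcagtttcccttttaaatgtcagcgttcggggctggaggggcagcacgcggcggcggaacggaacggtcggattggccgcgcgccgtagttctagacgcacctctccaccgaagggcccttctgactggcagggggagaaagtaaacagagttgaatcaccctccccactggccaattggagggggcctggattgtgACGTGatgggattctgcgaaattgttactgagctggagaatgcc
Fkbp5: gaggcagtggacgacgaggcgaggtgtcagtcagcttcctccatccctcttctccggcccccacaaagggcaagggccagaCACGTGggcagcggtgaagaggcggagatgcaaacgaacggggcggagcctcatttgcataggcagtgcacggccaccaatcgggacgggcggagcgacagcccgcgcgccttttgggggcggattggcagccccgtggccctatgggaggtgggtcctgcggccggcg
Tsc22d3: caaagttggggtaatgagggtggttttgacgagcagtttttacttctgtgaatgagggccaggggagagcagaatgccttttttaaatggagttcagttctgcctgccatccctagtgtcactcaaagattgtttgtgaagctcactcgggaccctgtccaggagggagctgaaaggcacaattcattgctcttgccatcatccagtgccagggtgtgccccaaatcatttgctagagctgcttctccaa

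In the Sgk1 window the capitals begin with CACGTG, which holds ACGTG on both strands, followed by a palindrome with the core ACANNNTGT flanked by G and C, each set off by a single free base. The palindrome began 188 bases before the start. Of the 6 annotated windows of Sgk1 this one is shown for that match, and among the other 5 the core without its flanks was found in 1. Over all 32851 windows of 250 bases, the core was found in 5.84% and the flanked form in 0.387%, and the flanked form always contains the core. ACGTG, the core of the hypoxia response element and part of the E-box CACGTG, was found in 16.6% of windows. It began 44 bases before the start of Klf9 and lay in a CACGTG at 169 bases before the start of Fkbp5. It also began 45 bases before an annotated start of Errfi1, whose windows are not printed. The 3 windows of Tsc22d3 held none of these motifs, which says nothing of elements elsewhere.

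The genotype difference at TN is described next, with values only. Tsc22d3 was measured at 60.9, 59.3 and 68.3 CPM in TN WT and at 102, 98.7 and 145 CPM in TN HIF2α AKO, a fitted log2 difference of 0.87 ± 0.20 (SE). The 2 groups did not overlap, and the lowest HIF2α AKO library was well above the highest WT library. In cold, Tsc22d3 stood at 132, 87.2 and 95.3 CPM in WT and at 107, 87.5 and 133 CPM in HIF2α AKO, and those groups overlapped over most of their range. TN WT was the group with low values. The cold libraries of both genotypes lay in the range of TN HIF2α AKO or just below it. Within WT the log2 difference of cold against TN was 0.74 ± 0.20, and within HIF2α AKO it was -0.08 ± 0.20, with values from -0.24 to 0.12 when single libraries were left out. The first of these shares the TN WT libraries with the genotype difference at TN, and no test is given for either. Without TN HIF2α AKO replicate 3, the highest library, the genotype difference at TN was 0.68, and over the other single libraries left out it reached 0.98.

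The other 8 genes were also fitted above 0 in TN HIF2α AKO against TN WT, as were 54.3% of all tested genes. The median was 0.40 over the 9 against 0.01 over all tested genes. Besides Tsc22d3, Fkbp5, Sgk1 and Errfi1 showed no overlap between the 2 TN groups, 4 of 9 where 7.69% of all genes did, in a contrast in which 0.00653% of all genes passed an adjusted p of 0.05. Nothing is read from these counts or from the median, because Tsc22d3 and the contrast itself entered the choice. Fkbp5 was measured at 63.1, 64.4 and 64.5 CPM in TN WT, where the highest library was 1.02 times the lowest, the smallest such ratio of any of the 9 genes in any group, and at 107, 71.3 and 87.0 CPM in TN HIF2α AKO. Its log2 difference was 0.47 ± 0.31, and it was 0.31 without TN HIF2α AKO replicate 1. Errfi1 was measured at 35.9, 45.2 and 40.3 CPM in TN WT and at 50.4, 50.3 and 55.6 CPM in TN HIF2α AKO. Just outside those 4, Klf9 had a difference of 0.58 ± 0.22 with groups that overlapped through TN HIF2α AKO replicate 1 at 48.0 CPM. The receptors had the smallest differences, 0.00 ± 0.15 for Nr3c1 and 0.06 ± 0.18 for Nr3c2.

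HIF2α AKO and WT were then compared in cold, the contrast that the study itself made in its RNA-seq. The stated reason for the choice used TN libraries, but the genes were chosen with earlier results of the cold libraries also known. By edgeR 0 of the 9 genes passed an adjusted p of 0.05, as by DESeq2 on all libraries or on the cold libraries alone, while 1 gene, or 0.00653% of all tested genes, passed in edgeR. An unadjusted p under 0.05 was found for 2 of the 9 and for 2.95% of all genes. These 2 were Errfi1 and Fkbp5, and they differed in direction. Errfi1 was measured at 45.8, 37.7 and 32.3 CPM in cold WT and at 52.7, 49.3 and 66.3 CPM in cold HIF2α AKO. Of the 9 genes, it was the single one whose cold groups did not overlap, which 7.53% of all genes showed. The log2 difference was 0.54 ± 0.15, with an edgeR p of 0.00358 and an adjusted p of 1, and it ranged from 0.40 to 0.68 over the alternatives.

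Fkbp5 lay the other way in cold, at 171, 62.8 and 78.0 CPM in WT and 66.5, 53.6 and 70.9 CPM in HIF2α AKO. The log2 difference was -0.71 ± 0.31, with an edgeR p of 0.0416 and an adjusted p of 1. It rested on cold WT replicate 1, without which it was -0.15. Zbtb16 was measured at 137, 22.6 and 21.8 CPM in cold WT and at 67.4, 21.4 and 17.8 CPM in cold HIF2α AKO. Its difference of -0.77 ± 0.75 turned to 0.68 without cold WT replicate 1. In both groups replicate 1 was the high library. The summed muscle markers were 1315 CPM in cold HIF2α AKO replicate 1 and 13.8 CPM in cold WT replicate 1. TN HIF2α AKO replicate 2, with a muscle sum of 1596 CPM, also held the highest Zbtb16 of its group, at 109 CPM against 41.1 and 80.7. The part of muscle in these values was not tested. For Klf9 the difference in cold was 0.02 ± 0.22 with a 95% interval from -0.41 to 0.45, and for Tsc22d3 it was 0.06 ± 0.20 with an interval from -0.34 to 0.45. The other 4 genes had differences from -0.01 ± 0.19 for Nr3c2 to 0.22 ± 0.17 for Sgk1, each with an adjusted p of 1.

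Cold WT replicate 1 had high values of some of the 9 genes within its group. It was the highest of the 3 cold WT libraries for Hsd11b1, Tsc22d3, Fkbp5, Zbtb16, Klf9 and Errfi1, 6 of the 9 genes, whereas 28.9% of all tested genes were highest there. TN WT replicate 3 was likewise the highest of its group for 6 of the 9, and for 45.6% of all tested genes. Zbtb16 was 6.18 times the mean of the other 2 libraries of the group, Fkbp5 2.43 times and Hsd11b1 2.08 times. For Klf9, at 139 CPM against 137 CPM in replicate 3, the lead over the next library was small. Sgk1 and Nr3c1 went the other way, with their lowest values of the group in this library, for Nr3c1 152 CPM against 171 and 225. Among the 22 other induced genes examined below, values went both ways. More of them were highest than lowest in this library, where 28.9% of all tested genes were highest. Cebpb, at 75.0 CPM against 80.6 and 99.1, Dusp1, at 45.2 CPM against 55.9 and 56.9, and Bcl6 were lowest here. Per1, at 103 CPM against 54.5 and 52.4, and Mt2, at 23.6 CPM against 7.22 and 10.0, were highest here. So were Cebpd, Mt1, Nfkbia, Ddit4, Zfp36, Mertk, Fam107a, Foxo3, Cdkn1a and Sesn1. In this library the summed muscle and epithelial markers were 13.8 and 5.37 CPM, within the range of the other cold WT libraries, and the macrophage sum of 1975 CPM was the highest of the group. Within cold WT the 3 macrophage sums were 1975, 1761 and 988 CPM, and their part in the spread of the 9 genes was not tested.

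**Figure D3:**
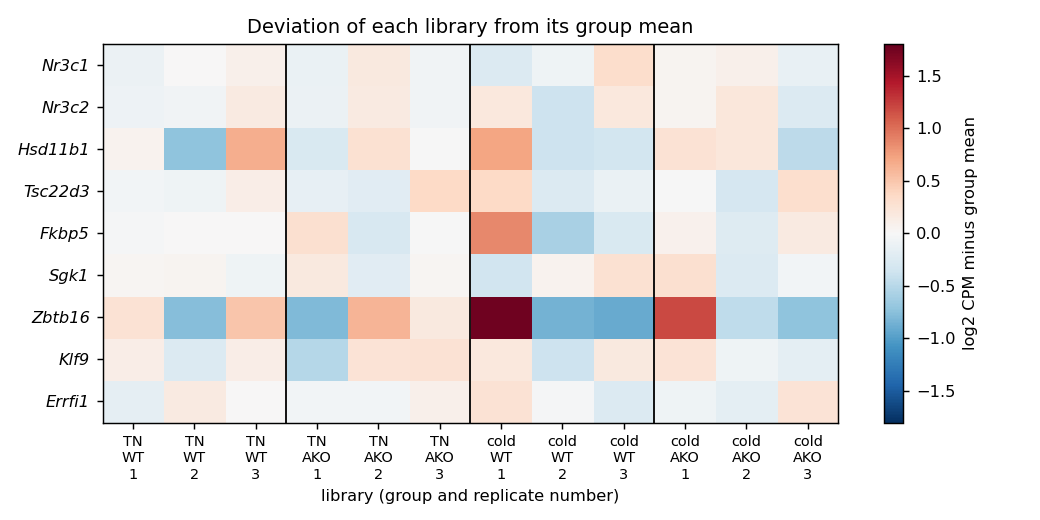
Log2 CPM of each gene (rows) in each library (columns) minus the mean of its group, in colour. Zbtb16 in cold WT replicate 1 had the highest value, 1.75, Nr3c1 stayed between -0.25 and 0.32, and Fkbp5 was almost level within TN WT.

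The genes whose levels over the 12 libraries were most like those of Tsc22d3 and Fkbp5 were found by the root mean square difference of standardised log2 CPM, over 13143 genes with a mean count of at least 50. Nearest to Tsc22d3 was Per1, a clock gene with a response element for the hormone, at a difference of 0.43, where the median gene was at 1.35. Then came 8430408G22Rik at 0.55, Ddit4, an inhibitor of mTORC1 signalling, at 0.55, Tspan14 at 0.56 and Gpr107 at 0.57. Per1 was measured at 37.1, 41.9 and 45.4 CPM in TN WT and at 62.3, 61.3 and 93.9 CPM in TN HIF2α AKO. In cold it stood at 103, 54.5 and 52.4 CPM in WT and at 58.7, 70.4 and 132 CPM in HIF2α AKO. As with Tsc22d3, TN WT held the lowest values of all groups, and the highest libraries of the other groups were the same ones. Per1 was picked for its likeness over these same libraries, so the shared pattern follows from the search. It is no separate support for the genotype difference at TN, which also entered the choice of the genes. Klf9 ranked 143, Errfi1 214, Fkbp5 386 and Sgk1 589 in likeness to Tsc22d3.

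Nearest to Fkbp5 was Hif3a, which encodes another HIFα subunit, at a difference of 0.41, against 1.34 for the median gene. Its levels were low, at 2.19 to 2.90 CPM in TN WT, 3.00 to 3.31 CPM in TN HIF2α AKO, 7.61, 2.14 and 3.34 CPM in cold WT and 1.94 to 2.56 CPM in cold HIF2α AKO. Cold WT replicate 1 was the highest library of all for both genes, which again follows from the search for likeness. The next were Qars at 0.56, Prg4, which encodes lubricin, at 0.60, Usp54 at 0.62 and Ddah1 at 0.62. Prg4 also had its highest value, 30.9 CPM, in cold WT replicate 1, against 8.59 and 6.88 CPM in the rest of the group. Of the 9 genes, Tsc22d3 ranked 165 and Zbtb16 291 in likeness to Fkbp5. The others were further off, with Hsd11b1 at rank 2800, Klf9 at 3021, Nr3c2 at 3353, Errfi1 at 4403 and Sgk1 at 8137. Nr3c1, at 12953 of 13143, was among the least alike of all genes.

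**Figure D4:**
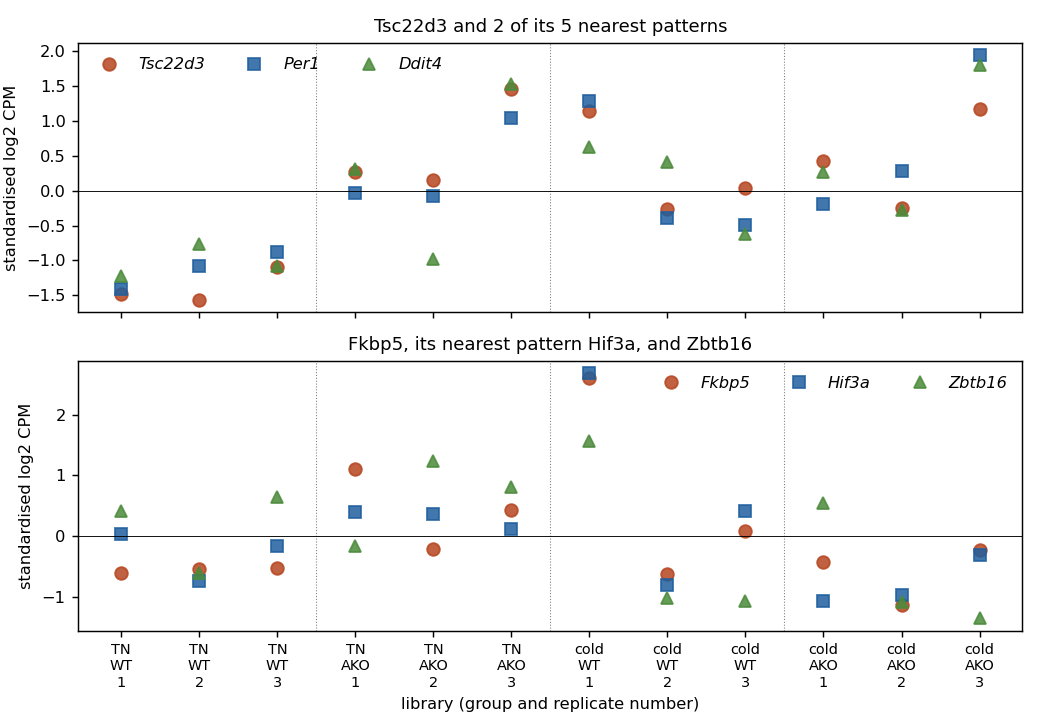
Standardised log2 CPM (vertical axes) in the 12 libraries (horizontal axis) for Tsc22d3 with Per1 and Ddit4, and for Fkbp5 with Hif3a and Zbtb16. Tsc22d3 and Per1 were lowest in the TN WT libraries and high in TN HIF2α AKO replicate 3, cold WT replicate 1 and cold HIF2α AKO replicate 3, and Fkbp5 and Hif3a were highest in cold WT replicate 1.

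To place the 9 genes in the wider pathway, a list of 22 other glucocorticoid-induced genes was examined in cold against TN over both genotypes. The list was written with earlier results of these libraries known. Of these, 9 rose, 4 fell and 9 passed no test, with a median log2 difference of 0.36 against -0.05 over all genes. Over all tested genes 48.8% were called in this contrast, 24.8% higher and 24% lower, and the counts of this list are to be read against those shares. Pdk4, the kinase that closes pyruvate dehydrogenase, rose by 3.85 ± 0.35 (edgeR adjusted p = 2.5e-05). Its libraries went from 18.8 to 71.3 CPM at TN to 436 to 1270 CPM in cold. Cebpb, an early factor of adipocyte differentiation, rose by 1.97 ± 0.22 (edgeR adjusted p = 6.7e-05), and Dusp1, the phosphatase that switches off MAP kinases, by 0.98 ± 0.13 (edgeR adjusted p = 0.000215). The list was not uniform, since the metallothionein Mt1 rose by 0.71 ± 0.15 (edgeR adjusted p = 0.00327) while Mt2 had 0.10 ± 0.27, Angptl4 -0.14 ± 0.35 and Per1 0.51 ± 0.23 (edgeR adjusted p = 0.0901). Genes on this list answer to other signals too, cAMP and fasting among them. In HIF2α AKO against WT in cold, 0 of the 22 passed an adjusted p of 0.05 by edgeR, and 2 had an unadjusted p under 0.05. Over all tested genes those shares were 0.00653% and 2.95%.

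**Figure D5:**
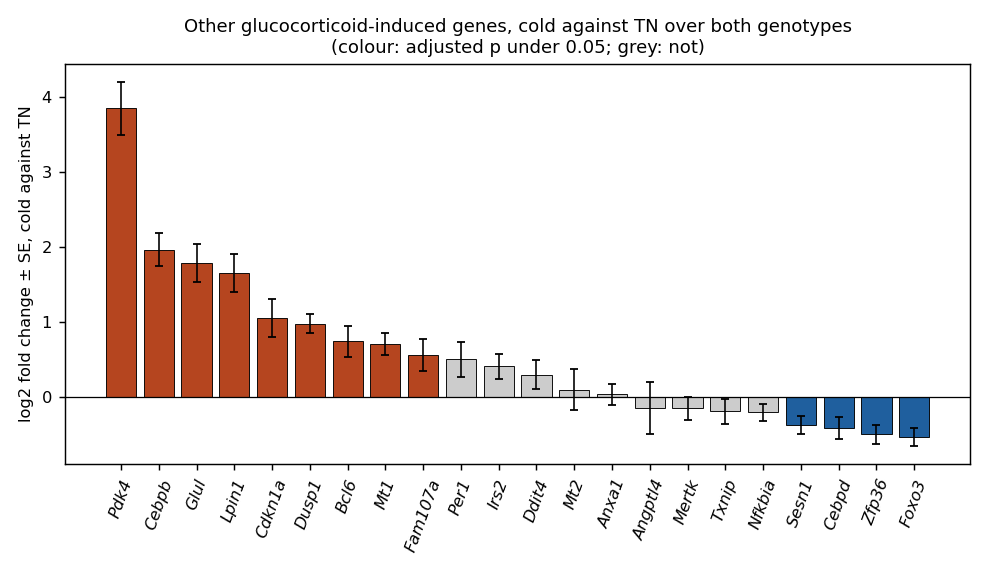
Log2 fold changes of the 22 other glucocorticoid-induced genes (horizontal axis) in cold against TN over both genotypes (vertical axis, whiskers 1 SE). Coloured bars passed an adjusted p of 0.05, 9 higher, from Fam107a at 0.57 to Pdk4 at 3.85, and 4 lower, from Sesn1 at -0.37 to Foxo3 at -0.53.

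The chaperones that hold the receptor ready for its ligand were 8 genes, of which 3 rose in cold and none fell, with a median log2 difference of 0.14. That share lay under the 48.8% of all tested genes called in this contrast. Hspa8, the constitutive Hsc70, rose by 0.74 ± 0.11 (edgeR adjusted p = 0.000578), the co-chaperone Bag1 by 0.89 ± 0.15 (edgeR adjusted p = 0.00108) and Fkbp4 by 0.44 ± 0.10 (edgeR adjusted p = 0.00482). Fkbp4 encodes FKBP52, the counterpart that takes the place of FKBP51, the Fkbp5 product, on the active receptor. Levels of Fkbp4 were 96.9 to 130 CPM at TN and 125 to 199 CPM in cold, and the groups overlapped in a narrow range. Between genotypes in cold, 0 of the 8 passed an adjusted p of 0.05 by edgeR, and 1 had an unadjusted p under 0.05. Over all tested genes those shares were 0.00653% and 2.95%.

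Genes of sodium transport that answer to the mineralocorticoid receptor in epithelia numbered 6, of which 5 were tested and 2 were called, again under the 48.8% of all tested genes. Nedd4l, the ubiquitin ligase that Sgk1 phosphorylates, rose by 0.56 ± 0.13 in cold (edgeR adjusted p = 0.00575). The channel subunit Scnn1a fell by 1.61 ± 0.58 (edgeR adjusted p = 0.0400), with 14.5 CPM in TN WT replicate 3, the library with raised epithelial markers, and at most 2.01 CPM in every other library. The part of those markers in the fall was not tested. Scnn1g, at 0.546 CPM or less in every library, had a log2 difference of 1.70 ± 0.76 (edgeR adjusted p = 0.0827).

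Clock genes were examined because Klf9 and Per1 also follow the time of day. Of 14 listed genes 13 were tested, 8 rose in cold, 1 fell and the median log2 difference was 0.56, where 48.8% of all tested genes were called, 24.8% higher. The factors Tef and Hlf rose by 1.38 ± 0.13 (edgeR adjusted p = 2.4e-05) and 2.17 ± 0.25 (edgeR adjusted p = 8.7e-05), and Per3 rose by 1.20 ± 0.13 (edgeR adjusted p = 6.0e-05). Tef stood at 44.0 to 75.8 CPM at TN and at 103 to 168 CPM in cold, without overlap. The part of these genes in the rise of Klf9 was not tested. Between genotypes in cold, 0 of the 13 passed an adjusted p of 0.05 by edgeR, and 1 had an unadjusted p under 0.05. Over all tested genes those shares were 0.00653% and 2.95%.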

How the data were processed

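Read counts per gene from 12 iWAT libraries, 3 in each of 4 groups assigned by the labels, were analysed. The authors trimmed reads with Trim Galore 0.4.4, aligned them with STAR 2.6.1d to GRCm38 and counted them with HTSeq 0.13.5 (versions per the submitters' processing notes), and deposited raw counts without normalization. Their annotation and strand setting are not given in the sources used here. The 5 tallies of reads outside genes, 21.9 to 27.0% of listed reads, were left out. The 9 genes and all lists were chosen with earlier results of these data known.

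edgeR 4.0.16 in R 4.3.3 was fitted to the 15306 genes kept by filterByExpr (minimum count 10, minimum total 15), with TMM scaling and 1 factor of 4 groups. The quasi-likelihood test was applied to cold against TN over both genotypes and within each genotype and to HIF2α AKO against WT in cold. P-values were adjusted by Benjamini-Hochberg over the 15306 genes, and 0.05 was the limit. Besides the 9 genes, the text names from each list the 3 genes with the smallest unadjusted p in cold against TN, plus Per1, Dusp1, Mt1, Mt2, Pdk4, Angptl4, the 5 nearest patterns of Tsc22d3 and of Fkbp5, and the checks Epas1 and Adipoq. Any further gene was named with its values in view. Exon lengths came from GENCODE M21. Log2 values used a prior count of 2. The tests were run on simulated data first, for cold against TN over both genotypes. There 6 of 138 calls by edgeR and 41 of 192 calls by DESeq2 were false, so calls by DESeq2 alone are weaker evidence. Intervals cover the spread between libraries, and at these depths a count of 0 allows up to 3 counts. The 95% intervals rest on a normal approximation with the SE of the fit. They are somewhat narrower than the quasi-likelihood test would give with so few libraries. DESeq2 1.42.0 and the other alternatives are given in the closing section.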

Additional observations from a re-analysis of the deposited data

How the results depend on the processing

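Of the 9 genes, Klf9 and Sgk1 were called higher in cold against TN over both genotypes in each alternative. Others joined them in 5 alternatives: Hsd11b1 by DESeq2 and without TN WT replicate 2, Tsc22d3 without TN HIF2α AKO replicate 3 and without cold HIF2α AKO replicate 2 (3 called each), and Hsd11b1 and Zbtb16, both lower, without cold WT replicate 1 (4 called; range with 1 library left out, 2 to 4). The Tsc22d3 call without TN HIF2α AKO replicate 3 is not read as a result, because the TN groups were then unequal. Without Tsc22d3, the 2 calls in WT became 1 with the replicate block and with only the libraries compared. They became 1 to 2 with 1 library left out. The 1 call in HIF2α AKO became 0 with the muscle and epithelium libraries left out, and 0 to 1 with 1 library left out. In cold, 0 of the 9 were called between genotypes in every alternative. The 13 calls among the 22 other induced genes ranged from 10 to 14. Replicate numbers were not used to pair the libraries in the main fit. The deviations of 5 of 18 same-numbered pairs correlated above 0.1 (range -0.51 to 0.52). Differently numbered pairs were not compared, so whether the numbers pair libraries was not tested. The block took Sgk1 in WT to an edgeR adjusted p of 0.0504 and ended no other call of these genes. Fkbp5 in WT passed the threshold without cold WT replicate 2 (log2 difference 0.93, edgeR adjusted p = 0.0397, against 0.116 with all libraries). Leaving out the 3 libraries with raised muscle or epithelial markers, and DESeq2 on the cold libraries alone, were chosen after seeing the data. Over all genes, calls between genotypes in cold numbered 1 by edgeR, 0 with only the libraries compared, 7 by DESeq2 and 12 by DESeq2 on the cold libraries alone. In WT, 3259 genes were called with all libraries in the model and 1752 with only those compared, and in HIF2α AKO 4138 and, without the muscle and epithelium libraries, 1834. The causes were not tested. With 3 libraries a group, changes of 0.5 on the log2 scale are often missed.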

Other observations

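Receptor coregulators, which read out the bound receptor at its target genes, were called in both directions in cold over both genotypes, where 48.8% of all tested genes were called, 24.8% higher and 24% lower. Of 9 genes, 4 fell and 2 rose, with a median log2 difference of -0.15. The coactivator Ncoa3 fell by 0.46 ± 0.12 (edgeR adjusted p = 0.00884) and Ncoa2 by 0.22 ± 0.06 (edgeR adjusted p = 0.0107), whereas Ncoa1 rose by 0.26 ± 0.07 (edgeR adjusted p = 0.0112).

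Inflammatory genes that the receptor represses were 8 genes, of which 7 were tested. In cold over both genotypes 1 rose and 1 fell, where 48.8% of all tested genes were called. Tnf fell by 0.58 ± 0.20 (edgeR adjusted p = 0.0344), Nos2 rose by 0.40 ± 0.13 (edgeR adjusted p = 0.0284) and the other 5 passed no test. The rise of Nos2 was an average of unlike values in the 2 genotypes. Within WT its difference was -0.04 ± 0.19 (edgeR adjusted p = 0.873), and within HIF2α AKO 0.84 ± 0.19 (edgeR adjusted p = 0.0096). Lymphocyte markers also fell in cold, and their part in these values was not tested. Of 8 immediate early genes, which respond within minutes to handling, 0 were called by edgeR in cold, against 48.8% of all tested genes. An unadjusted p under 0.05 was found for 1 of the 8 and for 56.2% of all tested genes. Junb came nearest, at -0.39 ± 0.15 (edgeR adjusted p = 0.0509), followed by Ier2 at -0.23 ± 0.11 and Egr2 at -0.18 ± 0.17. Ccl5 had a difference of -0.45 ± 0.30.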
